A study of Sus scrofa with 12 samples.

Results

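The genes described here were the fibroblast growth factor (FGF) ligands FGF1, FGF2, FGF7, FGF9, FGF10 and FGF18 and the receptors FGFR1, FGFR2, FGFR3 and FGFR4 in the endometrium of sows. They were chosen by name from the gene table, and all 10 were found among its 20674 genes. All 10 also passed the filter on low counts, which left 15351 genes for testing. RNA sequencing covered 12 endometrial libraries from Landrace × Yorkshire sows of parity 2 or 3, 3 libraries in each of 4 dietary groups, with the diets fed through 114 days of gestation. L − N received 3.73% crude fiber without N-carbamylglutamate (NCG, an analog of the activator of arginine synthesis), and L + N the same fiber with 0.05% NCG. H − N received 7.46% crude fiber without NCG, and H + N 7.46% crude fiber with 0.05% NCG. The total count ran from 14369781 to 19309724 per library. The labels number the libraries of a group without naming the animal, and the methods of the study do not tie each library to a sow, so p-values measure the spread between libraries.

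FGF ligands are secreted proteins that bind receptor tyrosine kinases at the cell surface together with heparan sulfate, and the activated receptors signal through the Ras and MAPK, PI3K-Akt and phospholipase C routes. In the uterus they pass between stroma, epithelium and vessels: FGF7 and FGF10 act on epithelial cells through a splice form of FGFR2, while FGF1 can bind every FGF receptor and FGF2 is known for its action on vessels and stroma. In the pig, FGF7 is known as a product of the endometrial epithelium and a growth factor for the conceptus. The deposited annotation placed all 10 genes in each of the KEGG pathways PI3K-Akt, MAPK, Ras and Rap1.

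The tissue label was checked against defining markers. The epithelial markers EPCAM and CDH1 averaged 259 and 559 CPM (counts relative to library size with TMM factors), and the stromal markers DCN and LUM averaged 2922 and 2019 CPM. The gland markers FOXA2 and ACP5 averaged 23.4 and 163 CPM. Smooth muscle markers were also present, with 567 CPM for MYH11 (306 to 1469), 25.7 for DES and 47.3 for CNN1. The placental trophoblast markers CYP19A1 and PPAG3, chosen as the defining ones of a list of 7, had 0 counts in every library. The list as a whole summed to 8.09 to 16.3 CPM per library, led by TFAP2C, and 3 of its genes (GATA3, TFAP2C and HSD17B1) had enough counts to be tested. Some libraries stood apart within their group. Replicate 1 of L − N differed from replicates 2 and 3 by a chi-square per gene of 99.8 and 75.0, against 23.3 between replicates 2 and 3. Replicate 3 of H − N differed from its partners by 80.9 and 68.3, against 24.3 between replicates 1 and 2, and replicates 2 and 3 of H + N by 81.9. Values without these libraries are given below where they change a call of a member. L − N also stood apart over all genes tested. On the first principal component of log2 CPM (26.7% of the variance) its libraries lay at −22.6, −67.2 and −65.5. The libraries of the other groups lay between 1.06 and 28.2.

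Per kilobase of gene length, the receptors FGFR1 and FGFR2 had the highest levels of the 10 genes. FGFR1 averaged 24.9 ± 5.50 CPM per kb and FGFR2 17.6 ± 7.05 (SD, n = 12 libraries). They were followed by FGF2 (9.44 ± 3.06), FGF9 (6.35 ± 1.78), FGF1 (6.10 ± 2.97) and FGFR3 (4.77 ± 1.96). The lowest levels were those of FGF10 (2.61 ± 0.960), FGF7 (1.49 ± 1.18), FGFR4 (1.43 ± 0.768) and FGF18 (0.768 ± 0.522 CPM per kb). In this order the range of each gene over the 12 libraries overlapped that of the next, and the means of FGF9 and FGF1, of FGF1 and FGFR3, and of FGF7 and FGFR4 differed by less than either SD. The order depends on the annotated lengths, and FGF9 had the shortest (819 bases, against 2027 to 6684 for the other ligands) with a mean of 5.20 CPM, below the 16.8 of FGF10, 22.4 of FGFR3 and 26.2 of FGF1. Among all genes tested, the level per kb of FGFR1 lay at the percentile 82.9 and that of FGF18 at 13.4. FGF18 had 9 to 57 counts per library and FGF7 16 to 159, so counting error weighs most on these genes, while FGFR1 had 829 to 1659. The biological coefficient of variation was lowest for FGFR1 (0.210) and highest for FGF18 (0.557), with a median of 0.206 over all genes tested.

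FGF1, the acidic FGF without a signal peptide, lies on chromosome 2 of Sscrofa11.1 (144133846 to 144241345, minus strand). Its CPM in replicates 1, 2 and 3 was 50.3, 37.0 and 36.7 in L − N, and 34.6, 28.8 and 20.1 in L + N. It was 12.3, 24.5 and 8.21 in H − N, and 33.0, 18.4 and 10.5 in H + N. The 3 libraries of L − N were thus above all libraries of the other groups, which overlapped each other. L − N also stood apart on the first principal component of all genes, and the share of genes with such a separation was not counted. From L − N to H − N the log2 fold change was −1.46 (SE 0.442, 95% interval −2.43 to −0.494), and the gene did not pass the edgeR quasi-likelihood test with Benjamini-Hochberg adjustment over all genes (adjusted p = 0.0770). DESeq2 called it (adjusted p = 0.0117), and over 18 alternatives of that comparison the adjusted p ran from 0.0117 to 0.178. In H + N against L − N the log2 fold change was −1.0 (edgeR adjusted p = 0.161), and in L + N against L − N −0.57 (edgeR adjusted p = 0.421).

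FGF10, a mesenchymal ligand of the epithelial FGFR2 form, lies on chromosome 16 (28695465 to 28779953, minus strand). For FGF10, the L − N libraries had 7.45, 12.7 and 12 CPM and the L + N libraries 12.3, 29.1 and 21.8, while H − N libraries had 23.8, 14.9 and 15.7 and H + N libraries 22.4, 13.6 and 15.7. All libraries of H − N and H + N lay above those of L − N, whereas replicate 1 of L + N fell within the L − N range. The log2 fold change against L − N was 0.97 in L + N (SE 0.338, edgeR adjusted p = 0.0913), 0.76 in H − N (edgeR adjusted p = 0.194) and 0.68 in H + N (edgeR adjusted p = 0.216). DESeq2 called the gene in L + N against L − N (adjusted p = 0.0411), with a range of 0.0411 to 0.307 over 18 alternatives.

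FGF2, the basic FGF, lies on chromosome 8 (101278877 to 101344084, minus strand) and overlaps NUDT6 on the other strand over 23884 bases. For FGF2, the L − N libraries had 34.5, 96.3 and 83.1 CPM and the L + N libraries 61.0, 76.3 and 50.2, while H − N libraries had 41.6, 59.6 and 38.6 and H + N libraries 79.3, 51.7 and 85.2. Replicate 1 of L − N was the lowest of the 12 libraries and the other L − N replicates were among the 4 highest, so that every pair of groups overlapped. From L − N to H − N the log2 fold change was −0.61 (edgeR adjusted p = 0.293). Without replicate 1 of L − N it was −0.94 (edgeR adjusted p = 0.0340), and over 18 alternatives the adjusted p ran from 0.0340 to 0.647.

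FGF9, a ligand with preference for FGFR3, lies on chromosome 11 (1554648 to 1581938, plus strand). Its CPM was 4.71, 4.26 and 2.42 in L − N and 8.65, 6.59 and 4.69 in H − N, which overlap only at the highest L − N and the lowest H − N library. The 6 libraries of L + N and H + N lay between 4.90 and 5.60 CPM, above all L − N libraries. FGF9 had a log2 fold change of 0.81 from L − N to H − N (95% interval 0.154 to 1.46, edgeR adjusted p = 0.128).

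FGF7, the keratinocyte growth factor, lies on chromosome 1 (122215878 to 122278705, minus strand), within FAM227B, which is annotated on the other strand. For FGF7, the L − N libraries had 1.85, 1.0 and 2.96 CPM and the L + N libraries 3.01, 3.20 and 3.40, while H − N libraries had 1.35, 2.98 and 11 and H + N libraries 3.49, 2.12 and 2.51. Replicate 3 of H − N was thus far above the other 11 libraries, of which none exceeded 3.49. FGF7 had a log2 fold change of 1.39 from L − N to H − N (95% interval −0.0318 to 2.81, edgeR adjusted p = 0.215). Without replicate 3 of H − N it was 0.15 (edgeR adjusted p = 0.888), and over 18 alternatives the adjusted p ran from 0.108 to 0.888. FGF18, on chromosome 16 (52724867 to 52760246, minus strand), was below 1 CPM in all L − N libraries and reached 3.93 CPM in replicate 3 of H − N and 2.94 in replicate 3 of H + N. Replicate 2 of these same groups held only 0.624 and 0.489 CPM, and no comparison of FGF18 passed. The methods of the study describe libraries that keep the strand, but the strand setting of the counting was not given, so the counts of FGF2 and FGF7 from the overlaps are uncertain. NUDT6 averaged 7.85 CPM against 63.1 for FGF2, and FAM227B 4.81 CPM against 3.24 for FGF7.

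**Figure D1:**
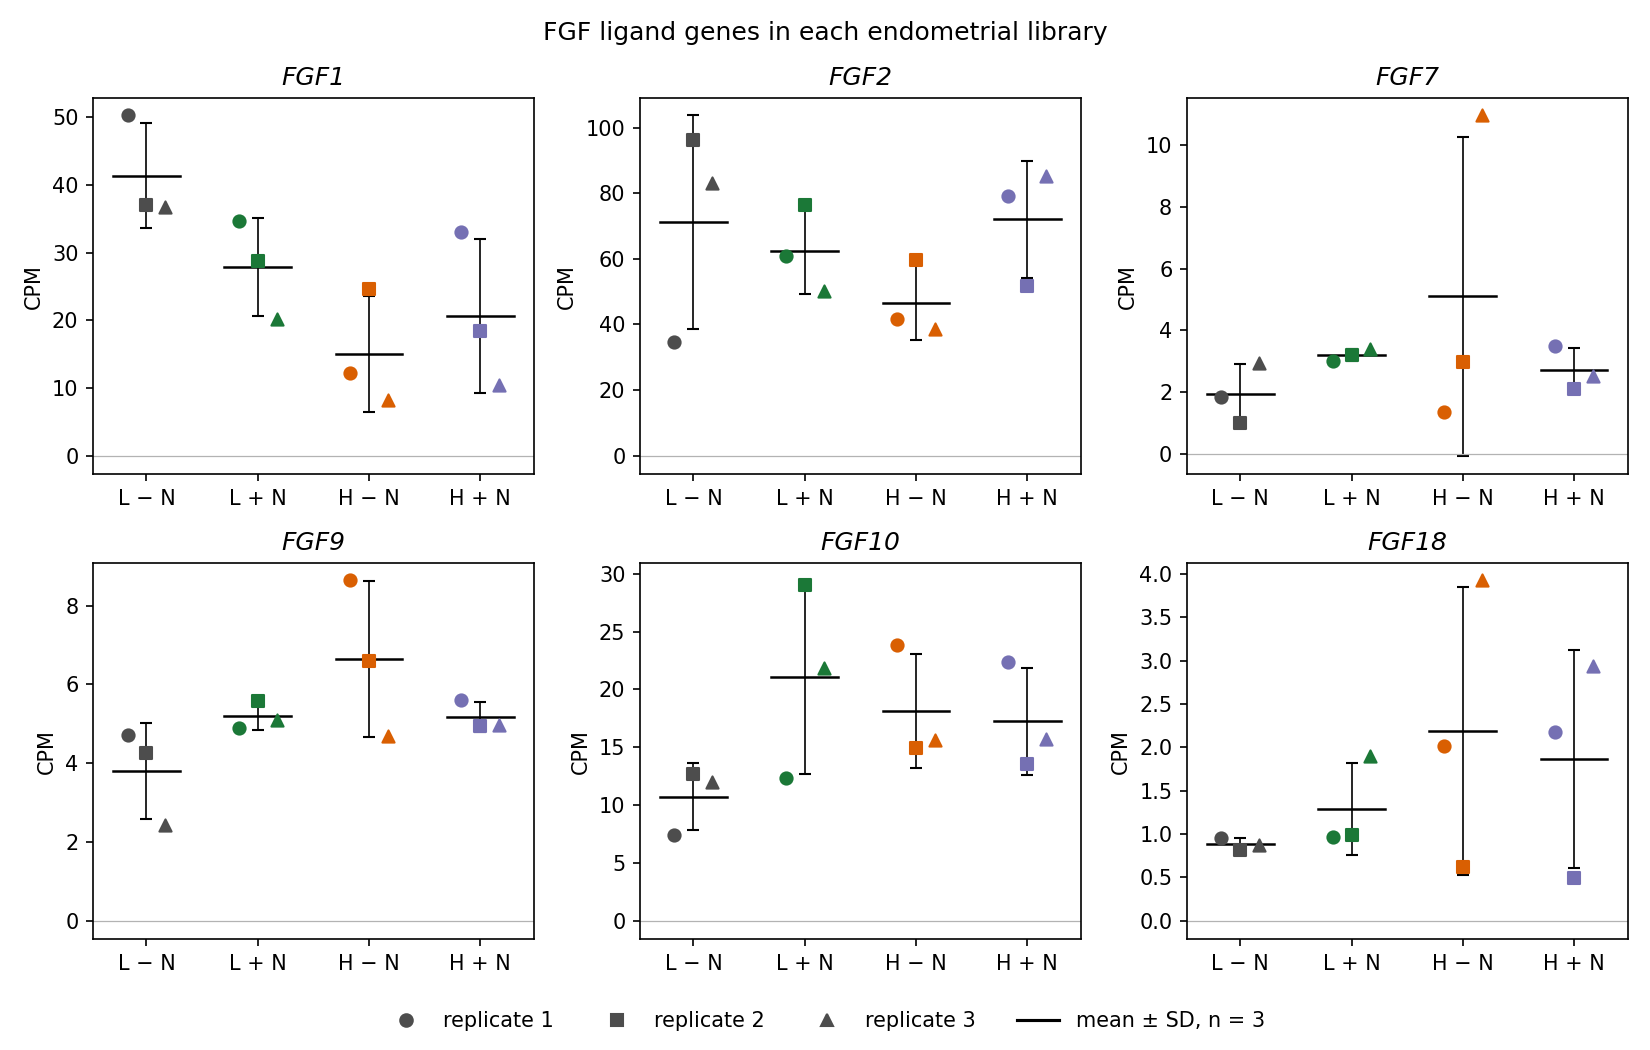
CPM of the 6 ligand genes (vertical axes) in the 4 dietary groups, with 1 point per library, the symbol giving the replicate, a bar at the group mean and whiskers of 1 SD (n = 3). The L − N libraries of FGF1 sit at 36.7 CPM or more and those of the other groups at 34.6 or less, and replicate 3 of H − N stands alone at 11 CPM for FGF7.

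FGFR3, a receptor for FGF1, FGF9 and FGF18 among others, lies on chromosome 8 (879151 to 894968, plus strand, gene identifier 100514115). The L − N libraries had 15.9, 10.3 and 10.3 CPM and the L + N libraries 19.3, 16.9 and 29.4, while H − N libraries had 40.2, 30.8 and 19.6 and H + N libraries 22.5, 21.0 and 32.8. The 3 libraries of L − N were below all 9 libraries of the other groups, and the other groups overlapped each other. As for FGF1, the share of all genes that set L − N apart from the 9 others was not counted. FGFR3 rose in H − N against L − N, by a fold of 2.48 (log2 fold change 1.31, SE 0.312, 95% interval 0.626 to 2.0), and passed the edgeR quasi-likelihood test with Benjamini-Hochberg adjustment (adjusted p = 0.0389). Over 18 alternatives the adjusted p ran from 0.00192 (DESeq2) to 0.155, and the value was positive in all 18. FGFR3 was the only member to pass in any of the 8 comparisons of the 4 groups, 1 of 10 (10%), against 15.3% of all genes. The log2 fold change against L − N was 1.06 in H + N (edgeR adjusted p = 0.0586) and 0.84 in L + N (edgeR adjusted p = 0.107), with no overlap of the groups in either comparison. H + N against H − N gave −0.25 (95% interval −0.917 to 0.419, edgeR adjusted p = 0.846), and the interaction was −1.09 (95% interval −2.05 to −0.139, edgeR adjusted p = 0.338), so that a difference between the effects of NCG on the 2 fiber levels was not established.

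The adjusted p of FGFR3 in H − N against L − N lay near the threshold. The call was kept in 5 of 12 fits that left out 1 library, with log2 fold changes of 1.05 to 1.55 over all 12. The edgeR adjusted p was 0.118 without replicate 2 of L − N, 0.155 without replicate 3 of L − N, 0.114 without replicate 1 of H − N and 0.0828 without replicate 2 of H − N. It was 0.0561 without replicate 1 of L + N, 0.0541 without replicate 2 of L + N and 0.0573 without replicate 1 of H + N. Fitted on the 6 libraries of both groups alone, it was 0.122, and with replicate number as a block it was 0.0606. For H + N against L − N, FGFR3 passed without replicate 1 of L − N (edgeR adjusted p = 0.0358), without replicate 3 of H − N (edgeR adjusted p = 0.0399) and in DESeq2 (adjusted p = 0.0142), with a range of 0.0142 to 0.179 over 18 alternatives.

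FGFR2, whose splice forms bind either FGF7 and FGF10 or other ligands, lies on chromosome 14 (131183095 to 131285001, minus strand). In CPM, the L − N libraries of FGFR2 had 87.7, 22.8 and 28.1 and the L + N libraries 55.0, 53.9 and 43.4, while H − N libraries had 65.5, 57.8 and 31.6 and H + N libraries 33.4, 48.2 and 32.1. Replicate 1 of L − N was the highest of the 12 libraries and the other L − N replicates were the lowest, so the L − N mean of 46.2 CPM had an SD of 36.0. From L − N to H − N it had a log2 fold change of 0.16 (edgeR adjusted p = 0.860). Without replicate 1 of L − N it was 1.02 (edgeR adjusted p = 0.0471), and over 18 alternatives the adjusted p ran from 0.0471 to 0.969. Gene counts do not separate the splice forms.

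FGFR1, the main receptor of stromal cells, lies on chromosome 15 (48053895 to 48106634, plus strand). In CPM, the L − N libraries of FGFR1 had 102, 80 and 97.1 and the L + N libraries 79.3, 62.5 and 64.5, while H − N libraries had 68.3, 82.0 and 112 and H + N libraries 54.6, 77.5 and 102. The L + N libraries were below those of L − N, by a log2 fold change of −0.43 (95% interval −0.942 to 0.0732, edgeR adjusted p = 0.248), and the other groups overlapped both. FGFR4, on chromosome 2 (80841536 to 80853791, minus strand), had 5.03, 7.90 and 4.77 CPM in L − N and 3.83, 2.57 and 3.93 in H − N. These 2 groups did not overlap, while H + N spread from 1.41 to 9.44 CPM and L + N from 1.94 to 6.61. The log2 fold change of FGFR4 in H − N against L − N was −0.77 (95% interval −2.13 to 0.583, edgeR adjusted p = 0.471).

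**Figure D2:**
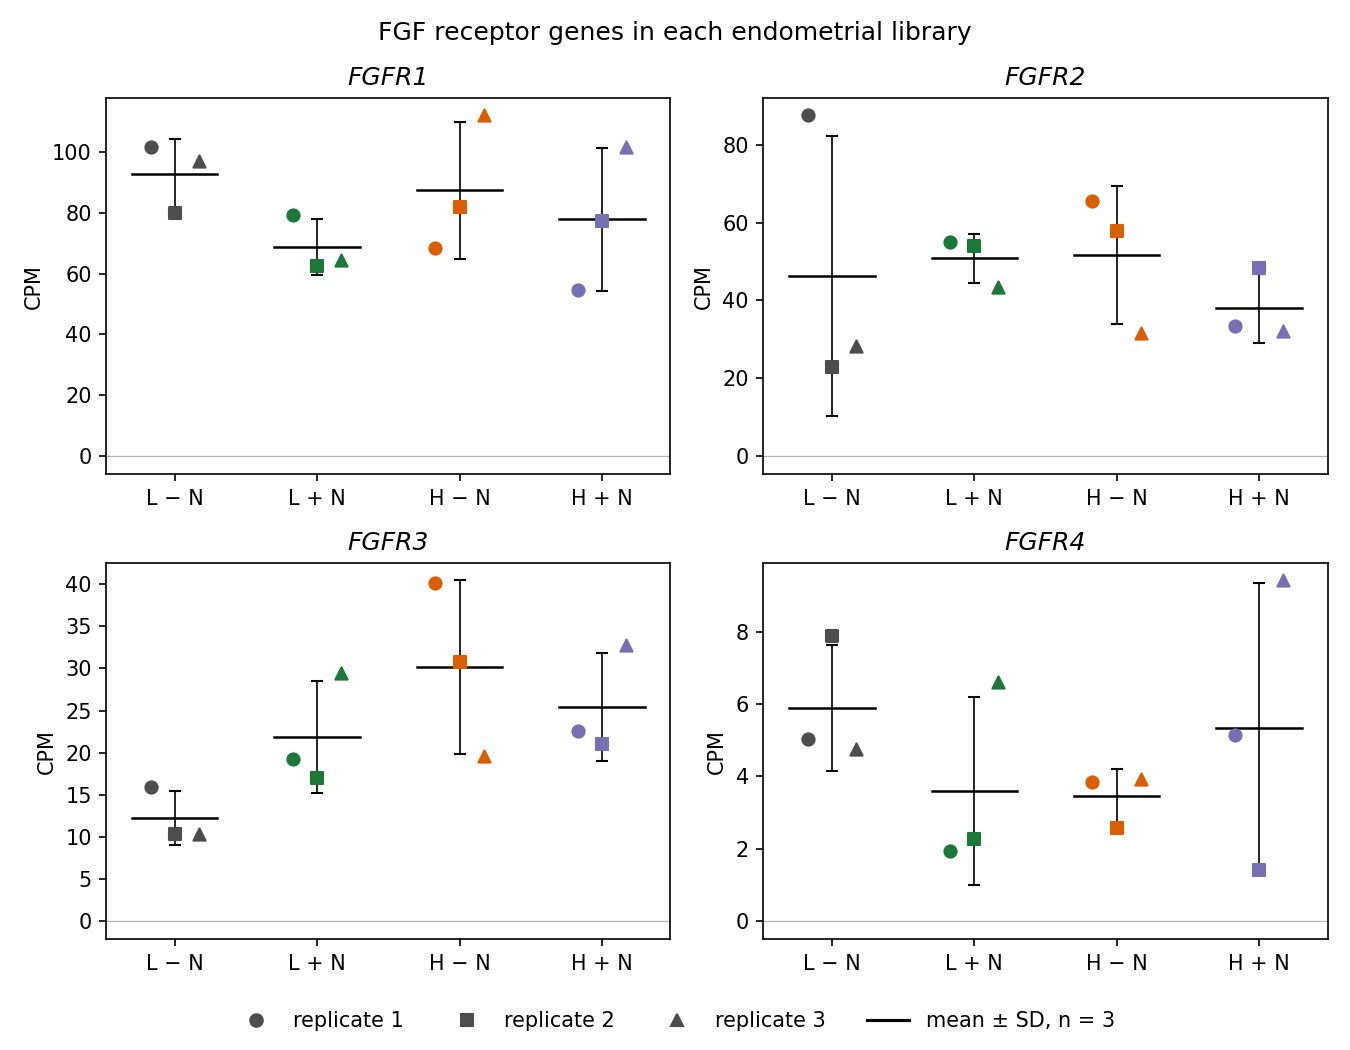
CPM of the 4 receptor genes (vertical axes) in the 4 dietary groups, with 1 point per library, the symbol giving the replicate, a bar at the group mean and whiskers of 1 SD (n = 3). The FGFR3 libraries of L − N lie at 15.9 CPM or less and all others at 16.9 or more, and replicate 1 of L − N stands at 87.7 CPM for FGFR2.

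The makeup of the receptor pool was described per library as the share of each gene in the summed CPM per kb of the 4 receptors, without a test. FGFR3 held 4.90%, 5.85% and 4.99% in L − N and 8.26%, 8.25% and 14.1% in L + N. It held 15.5%, 12.1% and 8.09% in H − N, and 13.5%, 9.55% and 13.2% in H + N. On this scale too the L − N libraries were below the other 9. FGFR1 held 37.6% to 67.4% and was the largest share except in replicate 1 of L − N and H − N and replicate 2 of L + N, where FGFR2 was larger. The summed level of the receptors was 50.2 ± 16.7 CPM per kb for L − N and 45.9 ± 3.26 for L + N, with 53.7 ± 1.94 for H − N libraries and 45.2 ± 8.80 for H + N libraries (SD, n = 3), with overlap between L − N and every other group.

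Among the ligands, FGF1 held 46.6%, 27.7% and 31.0% of the summed CPM per kb in L − N and 11.4%, 21.4% and 8.36% in H − N. With its short annotated length, FGF9 held 22.9%, 16.8% and 10.7% in L − N and 42.3%, 30.1% and 25.1% in H − N. The shares of both genes were thus separated between these groups, in opposite directions. Shares of a common sum are tied, so these are not independent observations. In CPM, FGF9 overlapped between these groups (edgeR adjusted p = 0.128). FGF10 held 4.61% to 6.77% in L − N and 7.11% or more in every other library. The summed level of the 6 ligands was 27.9 ± 3.0 CPM per kb for L − N and 27.6 ± 3.58 for L + N, with 24.8 ± 1.92 for H − N libraries and 26.7 ± 5.59 for H + N libraries.

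**Figure D3:**
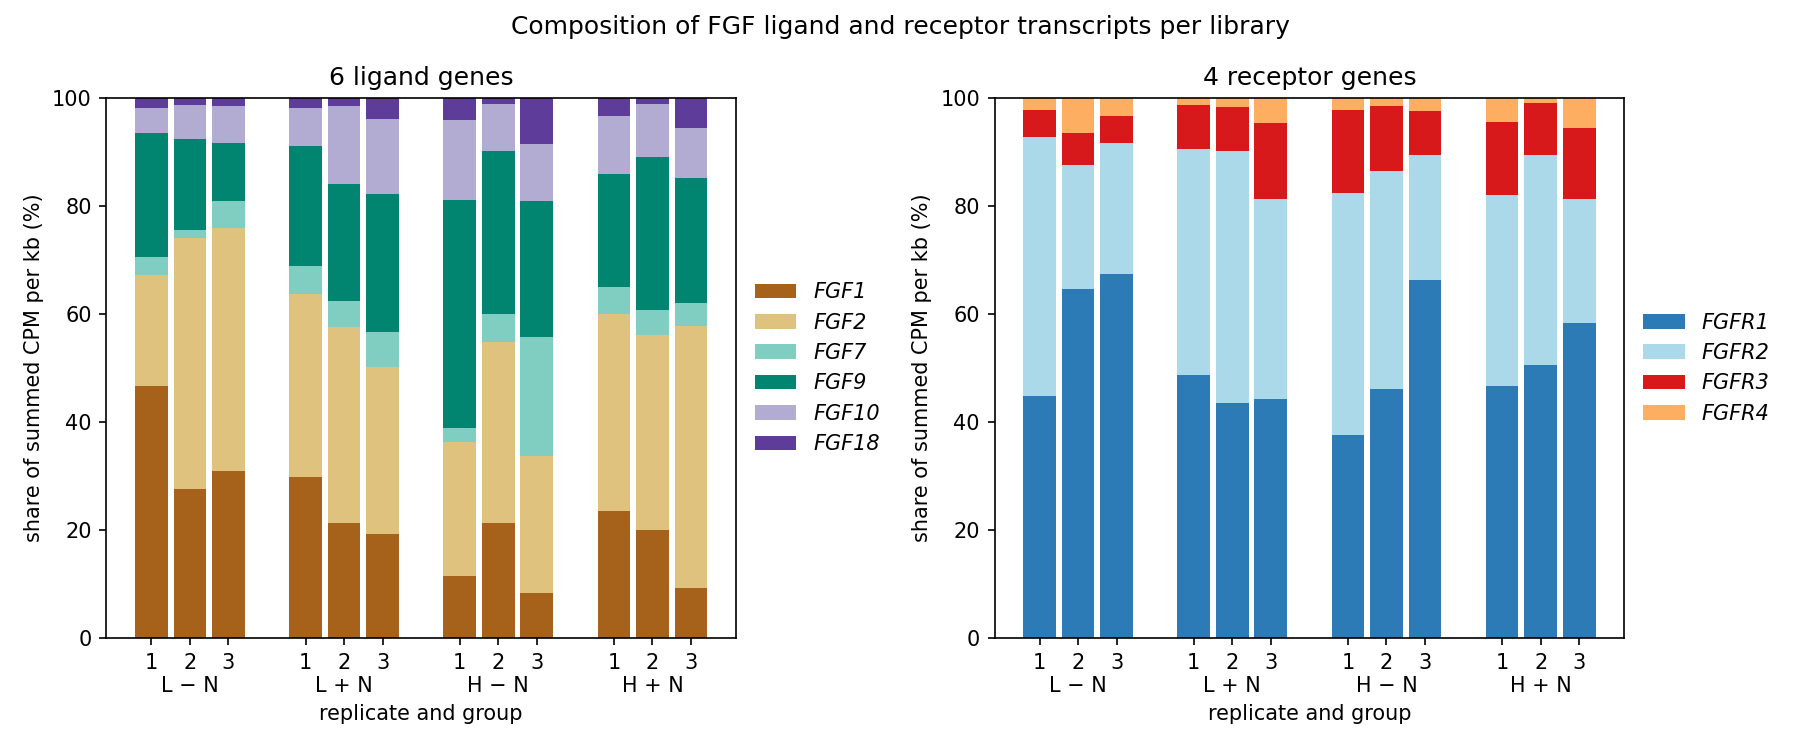
Share (%) of each gene in the summed CPM per kb of the 6 ligands (left) and of the 4 receptors (right), with 1 stacked bar per library, ordered by replicate within each group. FGFR3 takes 4.90% to 5.85% of the receptor bars in L − N and 8.09% to 15.5% in the other groups.

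NCG on the low-fiber diet was assessed by L + N against L − N. None of the 10 members passed the edgeR test, against 1474 of 15351 genes (9.6%). Without replicate 3 of L − N the passing genes were 207, and without replicate 2 of L + N 247, with 0 members in both. The groups did not overlap for 6 members (FGF1, FGF7, FGF9, FGF18, FGFR1 and FGFR3), against 35.3% of all genes, and the median log2 fold change was 0.29 for the members and −0.02 for all genes. At an unadjusted p under 0.05 there were 2 members of 10, FGF10 and FGFR3, and 27.8% of all genes. DESeq2 called 1 member and 2701 genes.

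High fiber without NCG was assessed by H − N against L − N. FGFR3 was the 1 member of 10 that passed, where 809 of all genes passed (5.27%), and it was also past the fold threshold of 1 on the log2 scale, as were 446 genes (2.91%). The groups did not overlap for 4 members (FGF1, FGF10, FGFR3 and FGFR4), against 25.4% of all genes. The median log2 fold change was 0.46 for the members and 0.03 for all genes, with FGF1 lowest at −1.46. At an unadjusted p under 0.05 there were 4 members (FGF1, FGF9, FGF10 and FGFR3) and 24.4% of all genes. Leaving out replicate 1 of L − N gave 3 passing members (FGF2, FGFR2 and FGFR3) and 2025 passing genes, and leaving out replicate 3 of L − N gave 0 members and 6 genes. Leaving out replicate 1 of H − N gave 0 members and 0 genes, and leaving out replicate 3 of H − N gave 1 member, FGFR3, and 229 genes.

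High fiber together with NCG was assessed by H + N against L − N, which shares its control libraries with the 2 comparisons above. None of the members passed in edgeR, against 1223 genes (7.97%; 1 gene without replicate 1 of H + N, 4 without replicate 3 of L − N, 328 without replicate 3 of H + N and 111 on the 2 groups alone), while 2 of 10 had an unadjusted p under 0.05 (FGF1 and FGFR3), against 27.5% of all genes. DESeq2 called 1 member, FGFR3, and 2680 genes. The groups did not overlap for FGF1, FGF9, FGF10 and FGFR3, 4 members, against 28% of all genes. The median log2 fold change of the members was 0.23, and 6 of 10 were positive.

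H + N was also compared with the groups that had only the fiber or only the NCG. In H + N against H − N, 0 members and 0 genes (0%) passed in edgeR, no member was separated between the groups, against 13% of all genes, and FGF2 had the smallest adjusted p of the members (0.623). In H + N against L + N, 0 members and 0 genes (0%) passed in edgeR, and again no member was separated, against 11% of all genes. Unadjusted, 0 members were under 0.05 in either comparison, with 1331 genes (8.67%) in the first and 719 (4.68%) in the second. DESeq2 called 0 members in both, with 47 and 2 genes. The median width of the 95% interval to either side was 0.85 on the log2 scale in both comparisons. For members with intervals wider than this median, differences of that size could not be resolved.

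Averaged over NCG, high fiber (HF) against low fiber (LF) had 0 members and 8 genes past the edgeR test (0.0521%). FGFR3 had a log2 fold change of 0.76 (95% interval 0.287 to 1.24, edgeR adjusted p = 0.112) and FGF1 of −0.95 (95% interval −1.63 to −0.273, edgeR adjusted p = 0.139). These 2 members of 10 had an unadjusted p under 0.05, as did 19.5% of all genes, and were called by DESeq2 (adjusted p = 0.0235 and 0.0368) among 1123 genes. Over 17 alternatives the adjusted p ran from 0.0235 to 0.257 for FGFR3 and from 0.0368 to 0.294 for FGF1. Without replicate 1 of L − N, 1 member (FGFR3, edgeR adjusted p = 0.0390) and 1088 genes passed. Averaged over fiber, NCG against no NCG had 0 members and 1116 genes past the edgeR test (7.27%, or 519 genes without replicate 2 of L + N). At an unadjusted p under 0.05 there were 0 members and 23.6% of all genes. DESeq2 called 0 members and 2049 genes. The member values lay between −0.30 (FGFR1) and 0.45 (FGF10) on the log2 scale. For the interaction, 0 members and 0 genes (0%, or 437 genes without replicate 1 of L − N) passed in edgeR. FGF10 and FGFR3 were the 2 members with an unadjusted p under 0.05, among 1967 genes (12.8%), and DESeq2 called 0 members and 298 genes. In the test of any difference among the 4 groups, 0 members and 1068 genes passed in edgeR (6.96%), with the smallest adjusted p for FGFR3 (0.0799), then FGF1 (0.148) and FGF10 (0.230). Unadjusted, FGFR3 and FGF1 were under 0.05, as were 27.3% of all genes, and DESeq2 called both among 3365 genes. FGFR3 also passed this test without replicate 3 of H − N (edgeR adjusted p = 0.0460), with a range of 0.00858 to 0.259 over 17 alternatives. The passing genes of this test were 4 without replicate 3 of L − N and 80 without replicate 2 of L + N.

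**Figure D4:**
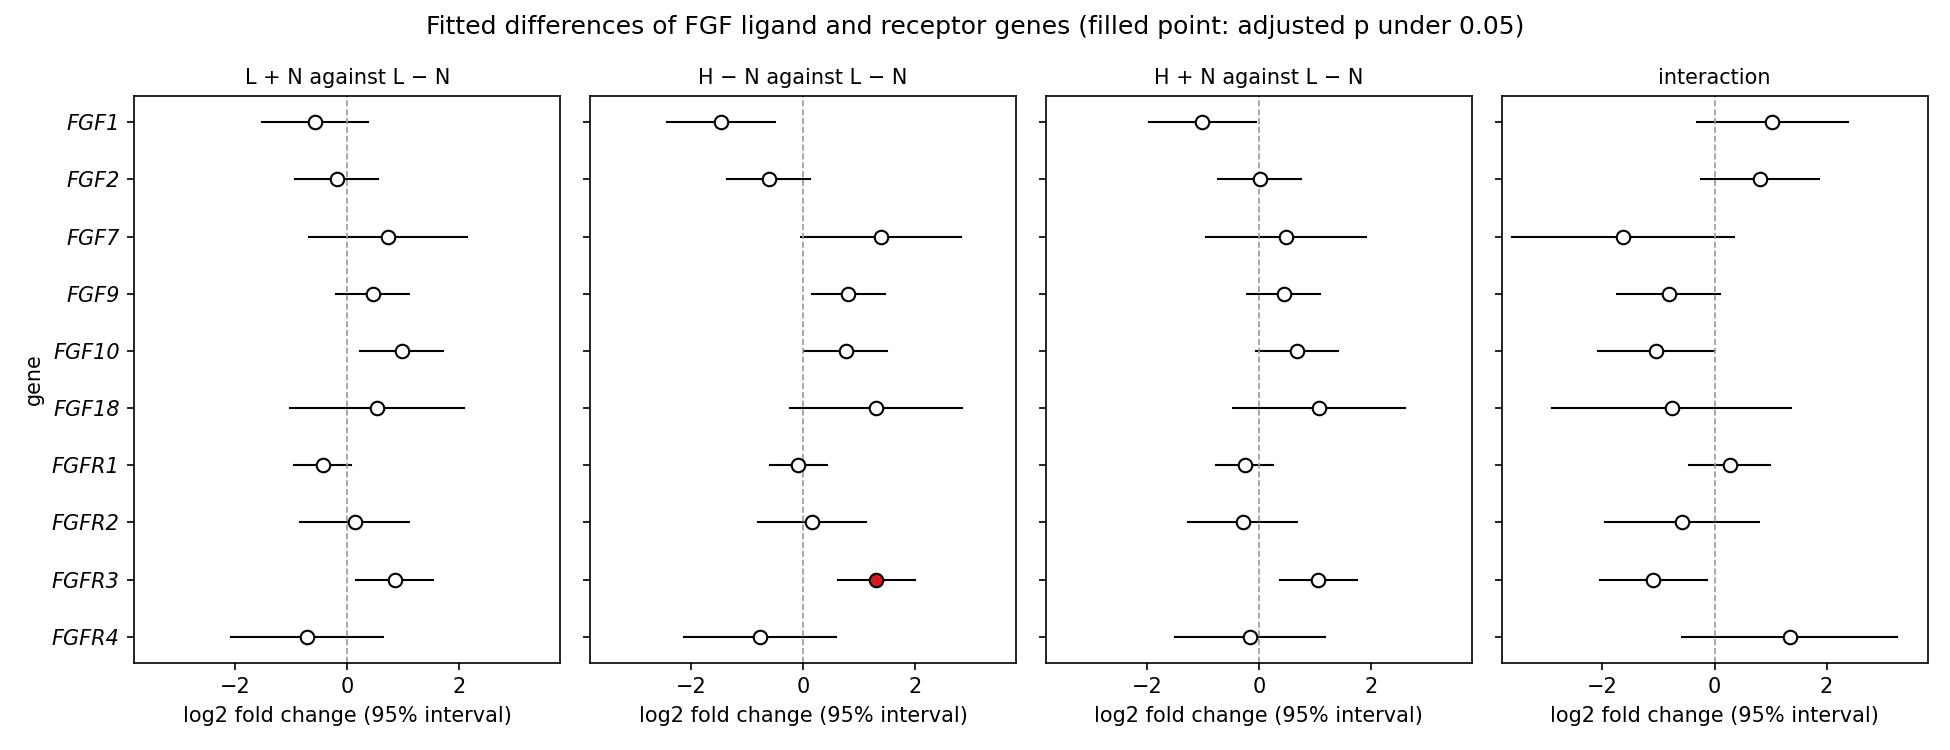
Log2 fold change (horizontal axes) of the 10 genes in 3 comparisons against L − N and in the interaction, as points with 95% intervals from the edgeR fit, filled where the adjusted p is under 0.05. Only FGFR3 in H − N against L − N, at 1.31, is filled, and FGF1 lies to the left of 0 in all 3 comparisons.

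Cell type markers differed between the same groups, and in bulk tissue fewer cells of a type and less RNA per cell cannot be told apart. Where FGFR3 rose, in H − N against L − N, 5 of 8 macrophage genes fell in the edgeR test. The summed level of the macrophage list was 1052, 2732 and 2797 CPM in L − N and 741, 813 and 545 CPM in H − N, with C1QB as its most abundant gene. Of the 9 epithelial genes 1 passed, CDH1, which was higher in H − N and the most abundant of its list, and the list summed to 1446, 1592 and 1060 CPM in L − N and 1944, 1590 and 2451 in H − N. Of 6 genes of dividing cells 1 passed, TOP2A, which was higher, and the list, led by MKI67, summed to 69.8, 154 and 52.9 CPM in L − N and 166, 179 and 214 in H − N. ACP5 (1 of 5 gland genes tested) and THY1 (1 of 9 stromal genes) were lower. The gland list, led by SPP1, summed to 332, 1360 and 1771 CPM in L − N and 284, 191 and 1426 in H − N, and the stromal list, led by COL3A1, to 29808, 27071 and 27530 CPM and 34665, 38816 and 61412 CPM. All defining markers of these lists were above 0 in every library. All marker calls of this comparison ended without replicate 1 of H − N, where 0 genes passed. Without replicate 3 of L − N 6 genes passed, and on the 2 groups alone 3 genes. The part of these lists in the FGFR3 result was not tested.

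The L − N libraries in which FGF2 and FGFR2 stood apart also differed in these lists. The smooth muscle list, led by MYH11, summed to 5604 CPM in replicate 1 of L − N, where FGFR2 was highest and FGF2 lowest, and to 1767 and 2206 CPM in replicates 2 and 3. Over the other groups it ran from 939 to 1728 CPM. Blood genes, led by HBB, summed to 754, 62.6 and 515 CPM in L − N. In L + N against L − N, all 6 genes of dividing cells rose, 2 of 8 smooth muscle and 2 of 8 endothelial genes fell, and 1 of 8 macrophage genes fell. ACP5 and the blood gene AHSP (1 of 3 tested) were also lower and the stromal gene HOXA10 higher. In H + N against L − N, 5 of 6 genes of dividing cells and HOXA10 rose, while 2 of 8 macrophage genes, 2 of 5 gland genes and 1 of 8 endothelial genes fell. Without replicate 1 of H + N only 1 gene passed in that comparison, and without replicate 3 of L − N 4 genes. With NCG averaged over fiber, all 6 genes of dividing cells and HOXA10 rose and 1 of 8 endothelial genes fell. Calls of single markers without 1 library are not given here. The dividing-cell list summed to 290, 318 and 399 CPM in L + N and 270, 301 and 366 CPM in H + N, and the endothelial list, led by VWF, to 835 to 1022 CPM in L + N, 973 to 1307 CPM in H + N and 1180 to 1713 CPM in L − N. Replicate 3 of H − N, with the highest FGF7, FGF18 and FGFBP1, summed to 173 CPM for the neutrophil list, against 12.6 and 6.73 CPM in replicates 1 and 2. Over the other groups the neutrophil list reached 101 CPM, in replicate 1 of L + N. Replicate 3 of H − N also had 381 CPM for the ciliated list, led by FOXJ1, against 183 and 200 in its partners and at most 308 in the other groups. Its 566 CPM for the B and plasma cell list, led by JCHAIN, were above the 116 and 179 of its partners but below the 805 of replicate 1 of L − N, where FGF7 had 1.85 CPM. No gene of these 3 lists passed in the comparisons with L − N. The relation of these lists to the levels of the FGF genes was not tested.

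The genes whose order of the 12 libraries by CPM was nearest to that of a member were named for the 3 members with the smallest p in the test of any difference, by the mean absolute difference of library rank. For FGFR3 these were ADGRL1 (0.50), IL11RA (0.667) and MFSD2B (0.667), with a median of 3.83 over all genes. For FGF1 they were NPY1R (0.50), PTPN14 (0.667) and TMEM131L (0.667), with a median of 4. For FGF10 they were TSPAN8 (0.833), NIM1K (1.17) and MME (1.17). Picked as the smallest differences among 15351 genes, these values lie below the median by selection, and no test was made. MFSD2B averaged only 0.943 CPM.

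The other genes of the pathway were taken from 7 lists with 95 genes, of which 84 were tested. In L + N against L − N, 3 rose and 4 fell, 8.33% of those tested against 9.60% of all genes. In H − N against L − N, 2 rose and 2 fell (4.76% against 5.27%), and in H + N against L − N, 4 rose and 1 fell (5.95% against 7.97%). In NCG against no NCG, 3 rose and 2 fell (5.95% against 7.27%). In the other 4 comparisons, 0 passed in edgeR. These shares were near those of all genes. Of the 12 further FGF ligands, FGF3, FGF4 and FGF8 had 0 counts in all libraries, 7 more stayed below the filter, and FGF21 and FGF22 were tested, with at most 15 and 40 counts in a library, and did not pass.

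Among proteins that hold or release ligands and co-receptors, 3 of 18 genes tested passed in at least 1 of the 8 comparisons (16.7%), against 15.3% of all genes, and no comparison had more than 1 of them. SDC3, a heparan sulfate proteoglycan of the cell surface, had 65.6, 145 and 146 CPM in L − N and 51.0, 64.7 and 61.5 in H − N, a log2 fold change of −1.01 (edgeR adjusted p = 0.0473). KLB, the co-receptor of endocrine FGFs, had 2.87, 3.07 and 2.69 CPM in L − N and 4.80, 7.04 and 4.25 in L + N (log2 fold change 0.90, edgeR adjusted p = 0.0486). FLRT2, a membrane protein that binds FGF receptors, had 85.1, 62.3 and 71.8 CPM in L − N and 129, 107 and 101 in H + N (log2 fold change 0.62, edgeR adjusted p = 0.0439). In these 3 comparisons the groups did not overlap. FGFRL1, a receptor without a kinase domain, KL and FGFBP1 did not pass. FGFBP1, which releases FGFs from the matrix, stood at 28.1 CPM in replicate 3 of H − N, the library with the highest FGF7, at 8.03 CPM in replicate 3 of H + N, where FGF7 had 2.51 CPM, and at 1.98 or less in the other 10 libraries. The intracellular homolog FGF13, which is not secreted, had 102, 54.5 and 119 CPM in L − N and 52.7, 42.2 and 48.3 in L + N, and fell by 0.94 on the log2 scale (edgeR adjusted p = 0.0306). None of the 12 heparan sulfate enzymes passed in edgeR.

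Of 22 adaptors and kinases, 8 passed in at least 1 of the 8 comparisons (36.4%), against 15.3% of all genes, a difference that was not tested. PIK3R1, the regulatory subunit of PI3K, had 203, 178 and 229 CPM in L − N libraries, against 313, 415 and 394 for H − N and 432, 269 and 436 for H + N. It rose in H − N (log2 fold change 0.88, edgeR adjusted p = 0.0322) and in H + N against L − N (0.89, edgeR adjusted p = 0.0262). MAPK3, which encodes the kinase ERK1, had 121, 135 and 125 CPM in L − N and 86.0 to 108 in all other libraries, and passed in L + N (log2 fold change −0.45, edgeR adjusted p = 0.0215) and H + N against L − N (−0.39, edgeR adjusted p = 0.0402) and with NCG averaged over fiber (−0.27, edgeR adjusted p = 0.0405). On high fiber alone, H + N against H − N gave −0.10 for MAPK3 (edgeR adjusted p = 0.802). MAP2K1, the kinase upstream of it, fell in L + N (log2 fold change −0.49, edgeR adjusted p = 0.0236), and BRAF rose in H + N against L − N (0.47, edgeR adjusted p = 0.0314) and with NCG (0.31, edgeR adjusted p = 0.0356). The remaining 4 were named after their values were seen: FRS2, the docking protein of FGF receptors, was higher in L + N (log2 fold change 0.43, edgeR adjusted p = 0.0454) and H + N (0.49, edgeR adjusted p = 0.0344) than in L − N. SOS1 was higher in L + N (0.51, edgeR adjusted p = 0.0396) and with NCG averaged over fiber (0.39, edgeR adjusted p = 0.0346). GRB2 was lower in L + N (−0.47, edgeR adjusted p = 0.0410), and PIK3CA was higher with NCG (0.73, edgeR adjusted p = 0.0344).

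Of 14 feedback inhibitors, 0 passed in edgeR in any of the 8 comparisons, against 15.3% of all genes, a difference that was not tested. For DUSP6, the phosphatase that is induced by ERK and acts on it, the L − N libraries had 94.6, 65.8 and 66.8 CPM and the L + N libraries 58.2, 65.6 and 61.3, while H − N libraries had 92.8, 71.1 and 122 and H + N libraries 60.9, 64.9 and 57.8. Its H − N libraries were above all those of L + N and H + N, and NCG against no NCG gave a log2 fold change of −0.47 (edgeR adjusted p = 0.0615). SPRY4, the next gene to FGF1 on its lower side at 242565 bases, reached 72.0 CPM in replicate 3 of H + N and was at 26.0 or less elsewhere. SPRY1 and SPRY2 did not pass.

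Of 12 target transcription factors and early genes, 2 passed in at least 1 of the 8 comparisons (16.7%, against 15.3% of all genes). ETV5, a target of FGF signaling, had 45.5, 36.7 and 43.7 CPM in L − N and 92.1, 55.1 and 60.3 in H − N, and rose by a log2 fold change of 0.72 (edgeR adjusted p = 0.0473). It was at 34 to 42.8 CPM in the NCG groups and passed in NCG against no NCG (−0.51, edgeR adjusted p = 0.0386). On low fiber alone, L + N against L − N gave −0.22 for ETV5 (edgeR adjusted p = 0.469), and its interaction was −0.58 (edgeR adjusted p = 0.382). EGR1, an immediate early gene, had 81.1, 116 and 63.9 CPM in L − N and 39.3, 44.5 and 33.5 in H − N, and fell by 1.15 on the log2 scale (edgeR adjusted p = 0.0279). The levels of ETV5 and EGR1 thus moved in opposite directions from L − N to H − N, while ETV4 did not pass. In H + N against H − N, the values were −0.80 for ETV5 and 1.15 for EGR1 without overlap of the groups, and neither passed (edgeR adjusted p = 0.451 for both).

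None of the 15 calls of the pathway genes named by rule held in all 12 fits that left out 1 library, and 4 to 12 of these fits ended each call. Without replicate 3 of L − N, the edgeR adjusted p was 0.182 for SDC3, 0.144 for ETV5 and 0.0836 for EGR1 in H − N against L − N, 0.128 for FGF13 and 0.0850 for MAP2K1 in L + N against L − N, and 0.119 for MAPK3 in H + N against L − N. Without replicate 2 of L + N, it was 0.191 for KLB and 0.0916 for MAPK3 in L + N against L − N, and 0.0990 for ETV5, 0.0995 for MAPK3 and 0.0995 for BRAF with NCG. Without replicate 1 of H + N, it was 0.155 for FLRT2, 0.0889 for PIK3R1 and 0.115 for BRAF in H + N against L − N. Without replicate 2 of L − N, it was 0.101 for PIK3R1 in H − N against L − N. These are the largest adjusted p of the 15 calls over the omissions. Fitted on the libraries of the 2 groups alone, 10 of the 12 calls between single groups ended, with edgeR adjusted p from 0.0422 to 0.171 over the 12, and those of MAPK3 and MAP2K1 in L + N against L − N were kept. DESeq2 kept all 15. The 6 calls of the 4 genes named after their values were seen were each ended by 4 to 8 of the 12 omissions, and 2 of the 4 between single groups ended on the 2 groups alone (GRB2, and FRS2 in H + N). The largest edgeR adjusted p without replicate 3 of L − N was 0.139 and 0.118 for FRS2 in L + N and H + N and 0.151 for GRB2, and without replicate 2 of L + N it was 0.143 and 0.0928 for SOS1 and 0.0839 for PIK3CA. DESeq2 kept these 6 as well.

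The libraries that stood apart ended pathway calls too. Without replicate 1 of L − N, the edgeR adjusted p was 0.0536 for FGF13, 0.0716 for KLB, 0.0663 for FRS2 and 0.0701 for SOS1 in L + N against L − N, and 0.0619 for ETV5, 0.0567 for SOS1 and 0.0533 for PIK3CA with NCG. Without replicate 3 of H − N, it was 0.0981 for SDC3, 0.0788 for PIK3R1, 0.0788 for EGR1 and 0.0715 for ETV5 in H − N against L − N, 0.0558 for KLB in L + N against L − N and 0.0701 for MAPK3 with NCG. Without replicate 3 of H + N, it was 0.0671 for FLRT2, 0.0711 for MAPK3, 0.0708 for PIK3R1 and 0.0892 for FRS2 in H + N against L − N, 0.0524 for SDC3 and 0.0517 for ETV5 in H − N against L − N, and 0.0507 for KLB in L + N against L − N. Without replicate 2 of H + N, it was 0.0687 for FLRT2, 0.0686 for MAPK3 and 0.0678 for BRAF in H + N against L − N, 0.0591 for KLB in L + N against L − N, 0.0545 for ETV5 in H − N against L − N, and 0.0682 for MAPK3, 0.0669 for BRAF and 0.0833 for ETV5 with NCG.

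**Figure D5:**
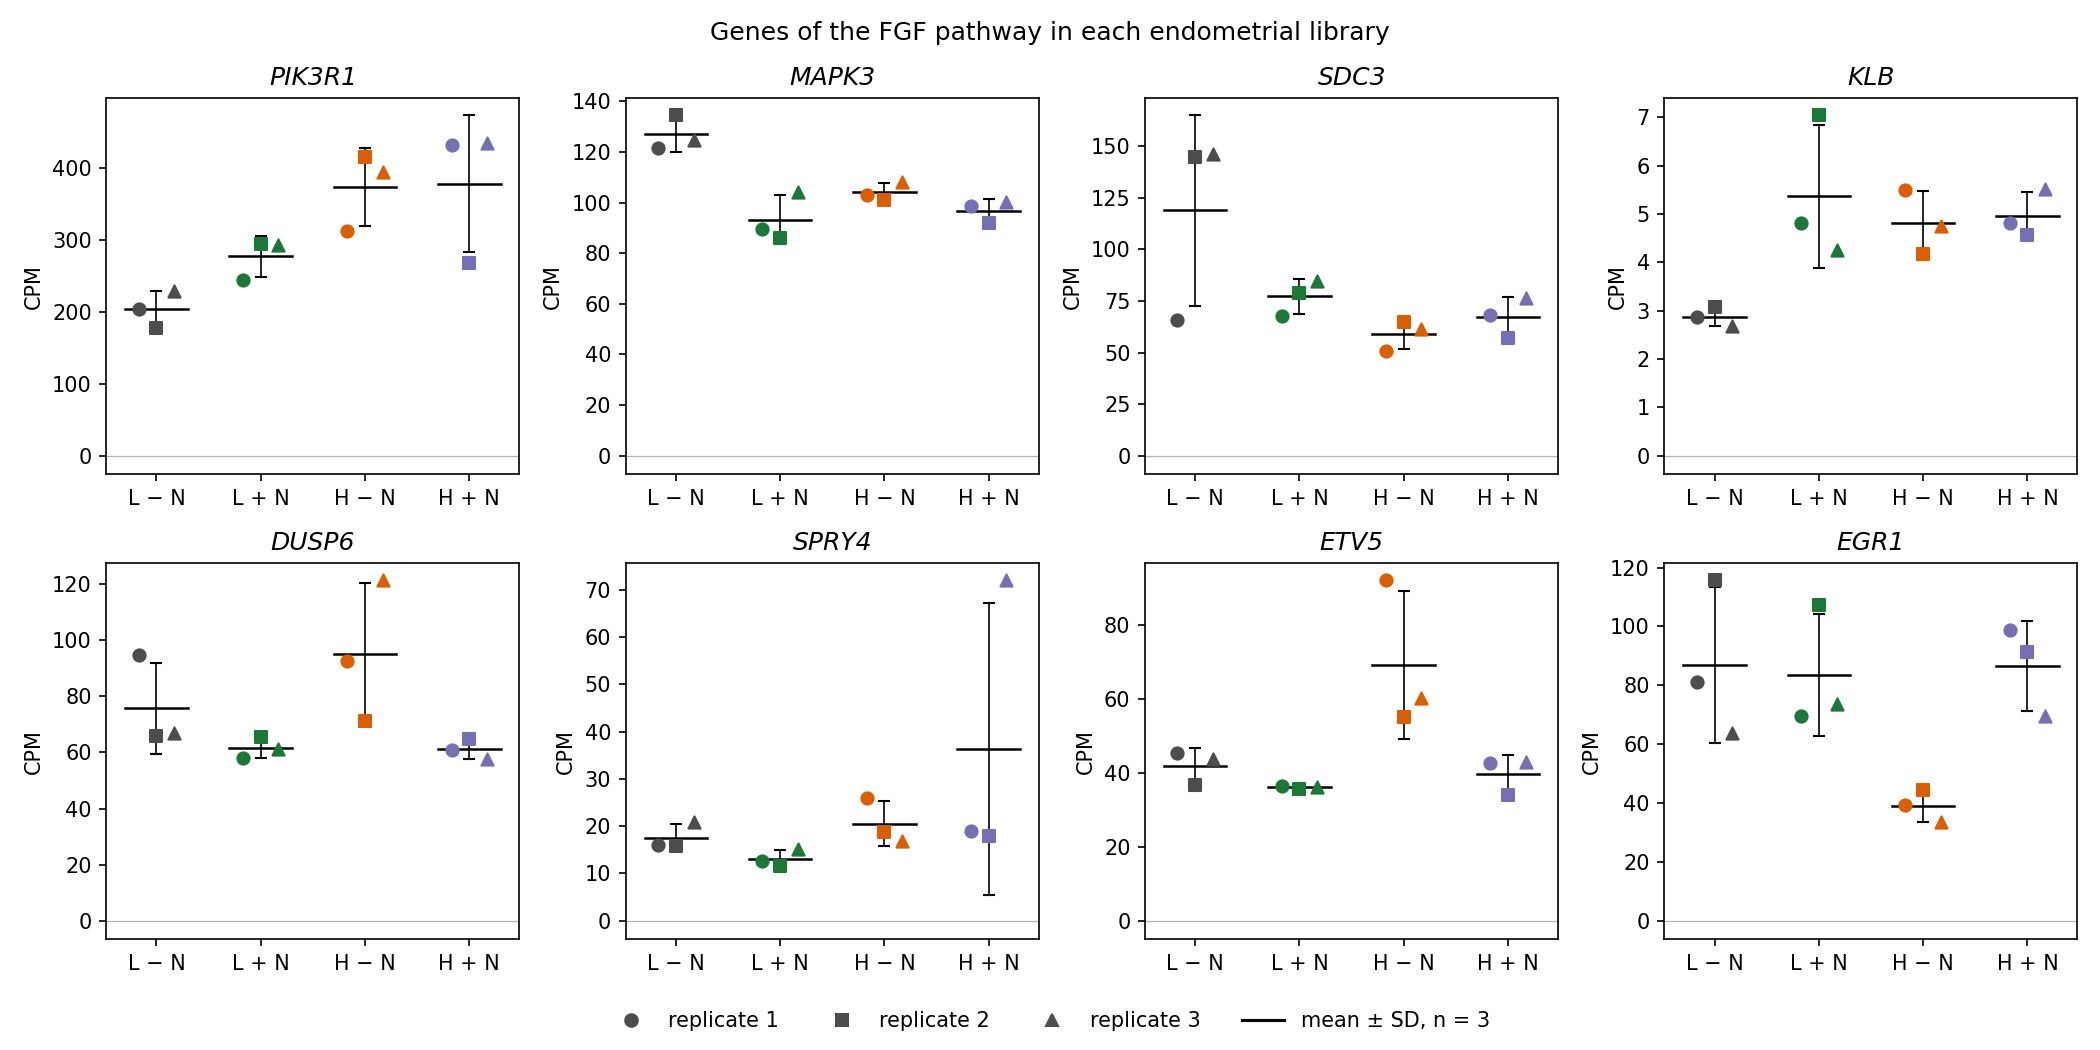
CPM of 8 pathway genes (vertical axes) in the 4 dietary groups, with 1 point per library, the symbol giving the replicate, a bar at the group mean and whiskers of 1 SD (n = 3). ETV5 lies at 55.1 CPM or more in H − N and at 45.5 or less elsewhere, and EGR1 at 44.5 or less in H − N and at 63.9 or more elsewhere.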

How the data were processed

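The authors deposited read counts per gene, FPKM values and gene lengths for 12 libraries of endometrial poly(A) RNA. The submitters' processing notes name fastp 0.22.0, HISAT2 2.1.0, HTSeq 0.9.1 and Sscrofa11.1, while the counting strand is not given in the sources used here. The deposited FPKM differed from those computed from the counts by at most 1.91e-05 percent and were used only for that check. Groups were read from the code in each title and the design text. The deposited counts were filtered with filterByExpr on the 4 groups, scaled by TMM and fitted with the quasi-likelihood test of edgeR 4.0.16 in R 4.3.3, with 1 mean per group over all 12 libraries. HF against LF and NCG against no NCG average 2 groups each, and the interaction is the NCG effect on high fiber minus that on low fiber. A gene passed at a Benjamini-Hochberg adjusted p under 0.05 over all genes tested. CPM was divided by gene length where genes were compared with each other. The common biological coefficient of variation was 0.269. Alternatives were RLE scaling, 2 other filters, DESeq2 1.42.0, a replicate block, the 2 groups alone, CPM without TMM factors and omission of each library. Named are all members, at most 4 passing genes per pathway list by smallest adjusted p with 10 fixed genes, the nearest genes by library order and the leading and defining markers. Other passing pathway genes and markers were named after their values were seen. The members and lists were chosen with earlier results of these data known. Neighboring and overlapping genes were looked up after values were seen, in the RefSeq annotation, which holds all 20674 gene identifiers.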

Additional observations from a re-analysis of the deposited data

Results flagged for a closer look

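The libraries of MAP2K1, the kinase upstream of ERK, were separated by fiber in opposite directions at the 2 levels of NCG, though neither comparison passed. Its CPM was 26.5, 31.1 and 28.2 in L − N and 23.3, 22.5 and 24.8 in H − N, so that every H − N library was lower (log2 fold change −0.28, edgeR adjusted p = 0.159). It was 20.1, 20.5 and 20.3 in L + N and 26.4, 24.3 and 27.7 in H + N, so that every H + N library was higher (0.36, edgeR adjusted p = 0.910). The interaction was 0.645 on the log2 scale (SE 0.161), and it did not pass the edgeR quasi-likelihood test with Benjamini-Hochberg adjustment (adjusted p = 0.255).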

How the results depend on the processing

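RLE scaling and both other filters kept every count of passing genes within 1.5 times and every count of passing members, but RLE scaling ended the calls of KLB and of ETV5 in H − N (edgeR adjusted p = 0.0511 and 0.0510), and no filter those of KLB, ETV5 in H − N, MAPK3 in H + N and with NCG, and FRS2 in L + N (0.0510 to 0.0630). DESeq2 called 1, 2 and 1 members in L + N, H − N and H + N against L − N, 2 in HF against LF and 2 for any difference among the groups, and 2701, 2091, 2680, 1123 and 3365 genes in these, with 2049 for NCG, 47 for H + N against H − N, 2 for H + N against L + N and 298 for the interaction. On the 2 groups alone, H − N against L − N had 0 members and 3 genes, and H + N against L − N 111 genes. A fold threshold left 613, 446, 549, 4 and 276 genes in L + N, H − N and H + N against L − N, HF and NCG. Without 1 library, passing genes ran from 207 to 1964, 0 to 2025 and 1 to 1823 in L + N, H − N and H + N against L − N, 0 to 1088 for HF, 519 to 1231 for NCG, 0 to 437 for the interaction and 4 to 1732 for any difference. Passing members ran from 0 to 3 in H − N and 0 to 1 in H + N against L − N, HF and any difference. Of 450 member values under other settings 2 changed sign, and of 960 without 1 library 55, none of them called. All 40 mean levels moved by less than 1 SD without TMM factors. Causes were not tested.

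With replicate number as a block, H − N against L − N had 0 members (FGFR3, edgeR adjusted p = 0.0606) and 380 genes, H + N against L − N 730 genes, HF 1 and any difference 477. The block also ended 3 of 6 calls of pathway genes named later and 8 of the 15 of those named by rule, with edgeR adjusted p from 0.0284 to 0.0880 over the 15. No pairing by number was seen, though with 3 libraries a group this check cannot settle whether one exists. Across genes, deviations from group means correlated at −0.322 to 0.283 for 18 pairs with the same number. For 36 pairs with different numbers the range was −0.323 to 0.284. Of 12 libraries, 0 correlated best with its own number in every group.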
